A study of Mus musculus with 10 samples.

Results

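The genes described here are 5 ligands of the epidermal growth factor family, Nrg1, Nrg4, Hbegf, Egf and Btc, and the 4 ErbB receptor tyrosine kinases they bind, Egfr, Erbb2, Erbb3 and Erbb4. They were chosen by name, with no measured value in the rule, and all 9 were present among the 23337 genes of the deposited table and passed the filter on low counts, which 13084 genes passed. In the right atria of mice labelled Tbx5 mutant, Erbb4 and Egf fell, and Nrg1 and Hbegf rose, compared with mice labelled control. The levels of Nrg4, Btc, Egfr, Erbb2 and Erbb3 did not pass the test. Among the 9 genes the largest rise was that of Nrg1, 2.67-fold, and the largest fall that of Erbb4, 2.37-fold.

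ErbB receptors sit in the cell membrane and signal as dimers once a ligand binds. ERBB2 has no known ligand of its own and ERBB3 has little kinase activity, so that both depend on a partner, whereas EGFR and ERBB4 bind ligand and carry an active kinase. Neuregulins bind ERBB3 and ERBB4, and EGF binds EGFR. HB-EGF and betacellulin bind both EGFR and ERBB4. In the heart, neuregulin-1 is best known as a signal from endothelium and endocardium to the ERBB4 and ERBB2 of cardiomyocytes, required for trabeculation in the embryo and for maintenance of the adult myocardium. The active receptors signal through the ERK and the PI3K/AKT pathways, among others.

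RNA was sequenced from right atria of 4 mice labelled control and 6 mice labelled as having Tbx5, a T-box transcription factor of the atrium, removed by R26Cre. In this model a tamoxifen-inducible Cre under the ubiquitous R26 promoter excises exon 3 of Tbx5, so that the excision is not restricted to cardiomyocytes. The labels describe the controls only as control. In a published study that sequenced left atria of this mouse model, the controls were R26CreERt2 mice and the mutants Tbx5fl/fl;R26CreERt2 mice. That study reports no sequencing of right atrial RNA, and whether the controls here had the same genotype is not given. For both groups the labels give a mixed strain and the same treatment text, 0.167 mg tamoxifen a day for 3 days with tissue taken 1 week later, and an age of 8 to 10 weeks in one field and 6 to 8 weeks in another. Mice are named by the sex letter and number in their labels, M1, M2, F1 and F2 for control and F1 to F3 and M1 to M3 for mutant.

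The targeted gene went against the labels. Tbx5 was 205 ± 17.8 CPM (CPM are counts scaled to the TMM-corrected size of the library and given on the usual per-million scale; SD, n = 4) in mice labelled control and 394 ± 83.3 CPM (n = 6) in mice labelled mutant, higher in 6 of 6 libraries labelled mutant than in every library labelled control (adjusted p = 0.000495). Reads of the whole gene do not show whether exon 3 was present, and every direction below is given relative to the labels. The left atrial study names Ryr2 and Sln among TBX5-dependent calcium-handling genes. Both were lower in mice labelled mutant, with log2 fold changes of -1.65 and -0.98 (adjusted p = 2.99e-05 and 0.000264). What these values say of the labels was not tested. The libraries held 5703775 to 7095141 counts. In library M3 labelled mutant 38.9% of these belonged to the ribosomal RNA gene Rn45s, against at most 1.49% elsewhere, and 3484550 counts remained. The sex labels of all 4 control libraries went against their Xist and Ddx3y counts, whereas those of the 6 libraries labelled mutant did not. No comparison of the sexes was therefore made.

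The stretches of DNA before the transcription starts are shown because TBX5 binds T-box elements, whose core is GGTGT, or ACACC when read on the other strand. RefSeq windows of the build GRCm38.p6 were matched for 6 of the 9 genes, Erbb4, Egf, Nrg4, Btc, Egfr and Erbb2, and the 250 bases before each start were searched on both strands. The full window is given for Egf, and the 30 bases around the match for Erbb4 and for Nrg4, each 5′ to 3′ on the gene's own strand with the core in capitals. All 3 genes lie on the reverse strand, and the places are chr3:129755323-129755572 for Egf, chr1:69108268-69108297 for Erbb4 and chr9:55283650-55283679 for Nrg4.
Egf: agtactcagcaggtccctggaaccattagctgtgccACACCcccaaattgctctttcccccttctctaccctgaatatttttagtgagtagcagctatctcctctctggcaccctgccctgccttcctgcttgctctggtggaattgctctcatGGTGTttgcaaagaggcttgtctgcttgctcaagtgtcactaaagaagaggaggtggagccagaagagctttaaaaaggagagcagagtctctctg
Erbb4: agcaaagaagcaACACCccctccttttccc
Nrg4: cgacctctgctcACACCttggtctgccttg
The core occurred 2 times in the Egf window, 1 time in the Erbb4 window and 1 time in the Nrg4 window. The Nrg4 window lies inside the gene, whose first annotated base on its own strand is at 55326844, and so precedes an internal start. It was also found 2 times before Btc and was not found before Egfr, Erbb2 or a second annotated start of Egf. Of 32851 windows of the same length over all genes, 36.2% held the core. The longer form AGGTGT, which contains the core, was in 11.8% of windows and AGGTGTGA, which contains both, in 1.12%. Among the genes described here Nrg4 held both longer forms, at the match shown. A match of letters does not show that a factor binds there.

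The ligands moved in both directions. Calls required an adjusted p below 0.05, a fold above 1.5 either way and a mean signal above 1 in the controls. By this rule 1 ligand of 5 was lower and 2 were higher in mice labelled mutant. Over all genes tested, 15.7% were called, 7.16% lower and 8.5% higher. With 5 ligands and 4 receptors, 1 gene more or less moves these shares far, and the counts of called members are given as a description. How many of all tested genes had groups that did not overlap was not counted. Some genes that were not called, among them Akt1 and Akt2, also had groups that did not overlap.

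Hbegf encodes a membrane-anchored, heparin-binding growth factor that is released by proteases. It lies on chromosome 18 from 36504927 to 36515805 in GRCm38. Hbegf was at 7.43, 7.61, 11.1 and 9.2 CPM in control M1, M2, F1 and F2. In the 6 mice labelled mutant the lowest value was 13.1 CPM, the median 20.8 CPM and the highest 43.1 CPM. Every library labelled mutant was above every control library, and M2 stood well above the other 5, which ended at 21 CPM. The means were 8.84 ± 1.72 CPM (SD, n = 4) and 23 ± 10.3 CPM (n = 6), a log2 fold change of 1.38 (SE 0.28, 95% interval 0.78 to 1.98, adjusted p = 0.00233). The exact permutation test over the 210 ways to assign 10 mice to 4 and 6 gave p = 0.0238. Without M2 the log2 fold change was 1.1 (adjusted p = 0.000522).

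Nrg1, the neuregulin that cardiac endothelium gives to the myocardium, lies on chromosome 8 from 31814551 to 32884029. It was the least abundant of the 9 genes in controls and the counts behind it were small, 7 to 15 reads in control libraries and 11 to 49 reads in libraries labelled mutant. Nrg1 was at 1.71, 2.48, 1.1 and 1.49 CPM in control M1, M2, F1 and F2, and between 2.52 and 7.14 CPM in mice labelled mutant, with a median of 4.1 CPM. The groups did not overlap, but control M2 and F1 labelled mutant were nearly level. The mean rose from 1.7 ± 0.583 CPM (n = 4) to 4.48 ± 1.84 CPM (n = 6), a log2 fold change of 1.42 (SE 0.34, 95% interval 0.69 to 2.15, adjusted p = 0.0065; exact permutation p = 0.0238). The floor of 3 reads lay between 0.4 and 0.817 CPM, below every Nrg1 value. Of the exon bases of Nrg1, 4.66% are shared with the opposite-strand gene Gm26578, and whether counting used strand is not given in the sources used here.

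Egf encodes the precursor of epidermal growth factor, the classical ligand of EGFR. The gene lies on chromosome 3 from 129677565 to 129755316, directly beside the window printed above. Egf was at 11.3, 13.7, 25.6 and 18.3 CPM in control M1, M2, F1 and F2. In mice labelled mutant it ranged from 7.35 to 10.8 CPM with a median of 8.55 CPM. Controls varied more than the mice labelled mutant, and the groups did not overlap, although control M1 was close to M1 labelled mutant. Egf fell from 17.2 ± 6.27 CPM (n = 4) to 8.75 ± 1.24 CPM (n = 6), a log2 fold change of -0.97 (SE 0.2, 95% interval -1.4 to -0.54, adjusted p = 0.00269). The exact permutation p was 0.00476, the smallest that 4 against 6 mice allow. The exons of Egf share 4.43% of their bases with 6330410L21Rik and 5.38% with Gm42697 on the opposite strand.

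Nrg4 and Btc did not pass the test. Nrg4, a neuregulin that binds ERBB4 and is known as a secreted product of brown fat, lies on chromosome 9 from 55220222 to 55326844. It was at 2.14, 1.32, 2.19 and 2.57 CPM in control M1, M2, F1 and F2 and at 1.36 to 2.06 CPM in mice labelled mutant, from 5 to 19 reads a library over both groups. Its log2 fold change was -0.42 (SE 0.25, 95% interval -0.96 to 0.13, adjusted p = 0.227). The groups overlapped through control M2, the lowest library of all. Its exons share 6.06% of their bases with Fbxo22 and 2.91% with Gm15625 on the opposite strand.

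Btc, which encodes betacellulin, lies on chromosome 5 from 91357261 to 91402994. It was at 3.11 to 4.86 CPM in controls and 2.04 to 4.36 CPM in mice labelled mutant, from 14 to 34 reads a library. The log2 fold change was -0.28 (SE 0.25, 95% interval -0.81 to 0.25, adjusted p = 0.409). At this depth, neither a fall of Btc by 0.81 nor a rise by 0.25 on the log2 scale lay outside the interval.

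**Figure D1:**
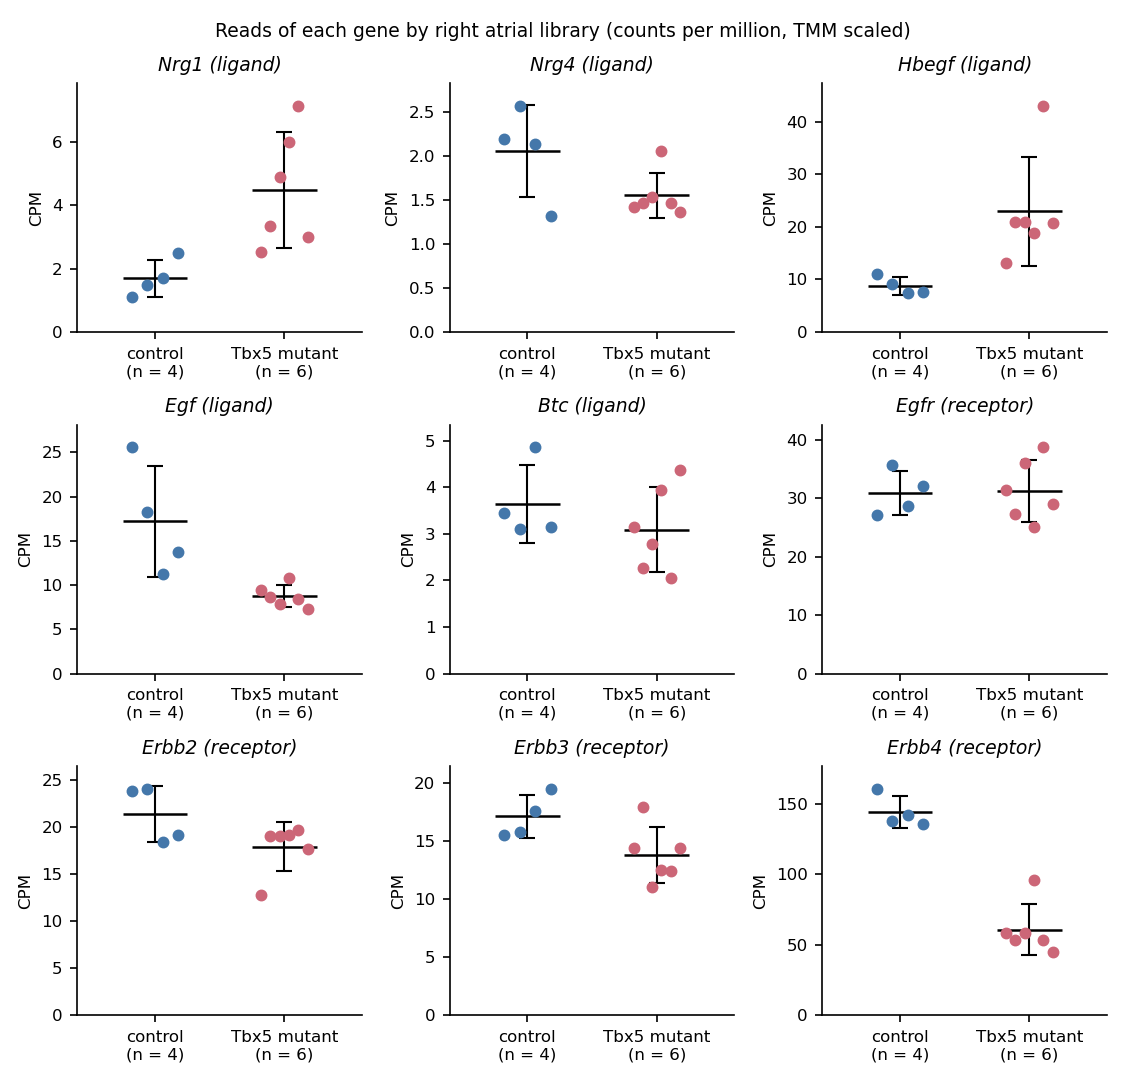
Level of each of the 9 genes in every library, in CPM on TMM-scaled library sizes, with its own vertical axis per gene; points are mice, horizontal bars are group means and error bars are SD (4 labelled control, 6 labelled Tbx5 mutant). The groups do not overlap for Nrg1, Hbegf, Egf and Erbb4, and the share of all tested genes without overlap was not counted. M2 labelled mutant at 43.1 CPM of Hbegf and M1 labelled mutant at 96 CPM of Erbb4 stand apart from the rest of their group.

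Of the receptors, 1 of 4 was called lower and 0 higher. Erbb4, the cardiomyocyte neuregulin receptor, was the most abundant of the 9 genes in controls and the one with the smallest adjusted p. It spans chromosome 1 from 68032186 to 69108059. Erbb4 was at 142, 136, 161 and 138 CPM in control M1, M2, F1 and F2, from 825 to 1027 reads. In mice labelled mutant the lowest value was 44.9 CPM in M3, the median 55.8 CPM and the highest 96 CPM in M1, from 165 to 560 reads. All 6 libraries labelled mutant were below all 4 controls, and 5 of them lay within 44.9 to 58.2 CPM, with M1 between them and the controls. The mean fell from 144 ± 11.3 CPM (n = 4) to 60.7 ± 17.9 CPM (n = 6), a log2 fold change of -1.25 (SE 0.16, 95% interval -1.59 to -0.9, adjusted p = 8.8e-05; exact permutation p = 0.00476). Without M1 it was -1.43 (adjusted p = 3.65e-07).

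Egfr, the receptor of EGF and HB-EGF, differed by less than the spread between mice. It lies on chromosome 11 from 16752203 to 16918158. It was at 30.9 ± 3.76 CPM (n = 4) in controls and 31.2 ± 5.26 CPM (n = 6) in mice labelled mutant, with ranges of 27.1 to 35.6 and 25 to 38.7 CPM. The log2 fold change was 0.02 (SE 0.13, 95% interval -0.26 to 0.3, adjusted p = 0.931). A change of Egfr of the size seen in Erbb4 lay outside this interval. Its sign depended on the libraries included and ran from -0.05 to 0.1 as each library was left out.

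Erbb2, the partner that the other receptors dimerize with, lies on the same chromosome from 98412470 to 98437716. It was at 18.4 to 24.1 CPM in controls and 12.8 to 19.7 CPM in mice labelled mutant, with F1 at the low end. Its log2 fold change was -0.25 (SE 0.13, 95% interval -0.54 to 0.03, adjusted p = 0.162).

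Erbb3, the receptor with little kinase activity that is known from Schwann cells and from the cushion mesenchyme of the developing valves, lies on chromosome 10 from 128567523 to 128589652. It was at 15.5 to 19.5 CPM in controls and 11 to 17.9 CPM in mice labelled mutant. Of the 6 mice labelled mutant, 5 were below every control. The log2 fold change of -0.31 (SE 0.14, 95% interval -0.61 to -0.02) missed the threshold after adjustment (adjusted p = 0.099; exact permutation p = 0.0571). Without F2 labelled mutant it was -0.4 with an adjusted p of 0.0321, still under the fold of 1.5.

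**Figure D2:**
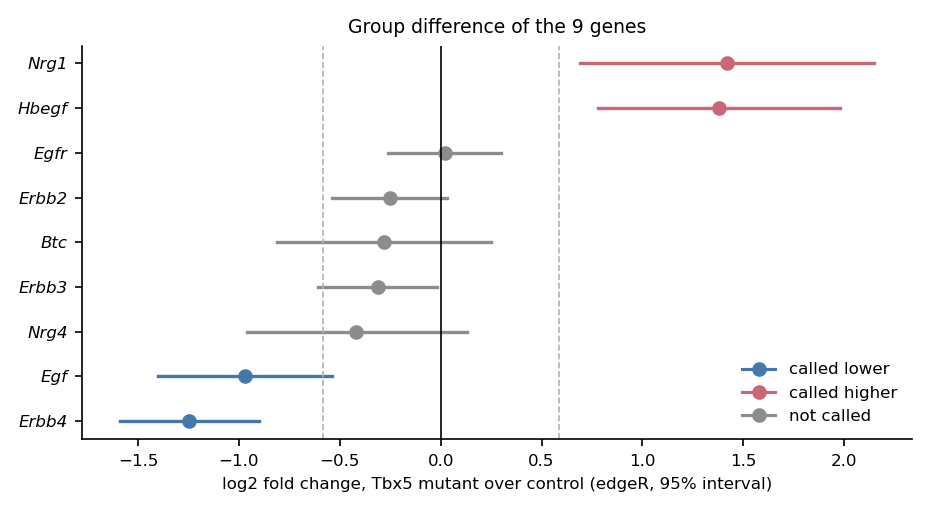
Log2 fold change of the 9 genes in mice labelled Tbx5 mutant against mice labelled control, as points with 95% intervals (lines) from the edgeR quasi-likelihood fit, ordered by size; blue is called lower, red called higher, grey not called, and dashed lines mark a fold of 1.5. The intervals of Nrg1, Hbegf, Egf and Erbb4 lie wholly on one side of 0, and the interval of Erbb3 ends at -0.02.

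Over the 9 genes the median log2 fold change was -0.28, beside -0.005 over all genes tested. The log2 fold changes ran with transcript length across 12950 genes (Spearman's rho = -0.316), and Erbb4 and Egfr have the longest transcripts of the 9 genes, 12037 and 10208 bases. With each library's trend on length removed, the fall of Erbb4 was 0.93 on the log2 scale (adjusted p = 0.000184) and the value of Egfr was 0.32 (adjusted p = 0.158). Egf then stood at -0.88, Hbegf at 1.33 and Nrg1 at 1.54, each called as before.

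Because a share of reads within 1 library does not depend on scaling, the make-up of the receptor and the ligand reads was also computed. These shares were chosen after the values were seen and carry no test. Erbb4 gave 67.5% ± 2.77 (SD, n = 4) of the reads of the 4 receptors in controls and 48.4% ± 7.6 (n = 6) in mice labelled mutant. M1 labelled mutant, at 62.9%, was near the lowest control at 64.7%, and the other 5 were lower. The share of Egfr was 14.5% ± 2.04 in controls and 25.6% ± 5.25 in mice labelled mutant, that of Erbb2 was 10% ± 1.1 and 14.6% ± 2.31, and that of Erbb3 was 8.04% ± 1.16 and 11.4% ± 2.79. The receptor reads numbered 1253 to 1581 in control libraries and 389 to 891 in libraries labelled mutant.

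Among the ligands the gene with the most reads differed between the groups. Egf gave 50.3% ± 7.44 (n = 4) of the reads of the 5 ligands in controls and Hbegf 26.6% ± 0.666. In mice labelled mutant Hbegf gave 54.6% ± 9.19 (n = 6) and Egf 22.6% ± 6.17. There were 0.436 to 0.658 Hbegf reads for each Egf read in controls and 1.38 to 5.1 in mice labelled mutant, so that Hbegf had more reads than Egf in 6 of 6 libraries labelled mutant and in 0 of 4 controls. Per kb of transcript the control ranges of these ligands overlapped, 2.37 to 5.37 CPM per kb for Egf and 2.57 to 3.85 for Hbegf, and in control M1 Hbegf was the higher. Nrg1 gave 5.46% ± 2.68 and 10.7% ± 2.55, and these ranges overlapped.

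**Figure D3:**
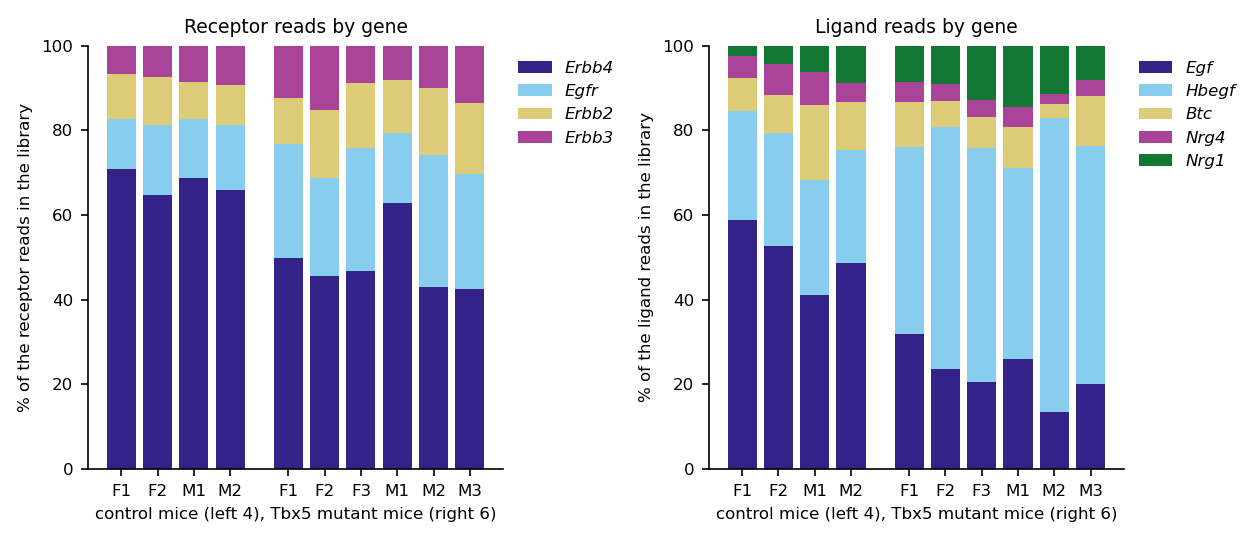
Share of reads, in percent, that each receptor gave of the 4 receptors and each ligand gave of the 5 ligands in every library, as stacked bars that add to 100. Erbb4 makes up 64.7% or more of the receptor reads in the 4 control libraries and 62.9% or less in the 6 labelled Tbx5 mutant, and Hbegf exceeds Egf in all 6 libraries labelled mutant and in 0 of the 4 controls.

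To compare levels between genes, CPM were divided by transcript length in kilobases. In controls Erbb4 led with 12 ± 0.936 CPM per kb (SD, n = 4), and its lowest library at 11.3 was above the highest of any other member. Erbb2 at 4.27, Egf at 3.62, Hbegf at 3.06, Egfr at 3.03 and Erbb3 at 2.84 CPM per kb followed, and each of these overlapped its neighbour in the order. Nrg4 at 0.983 and Btc at 0.904 CPM per kb also overlapped each other and lay below all of these, and Nrg1 came last at 0.313. In mice labelled mutant Hbegf was first at 7.94 ± 3.57 CPM per kb (n = 6) and Erbb4 second at 5.04 ± 1.49, with ranges that overlapped, and Nrg1 at 0.827 stood beside Btc at 0.768 and Nrg4 at 0.739. Which transcripts of a gene were present is not given by these counts, so the length used is that of the longest one annotated.

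**Figure D4:**
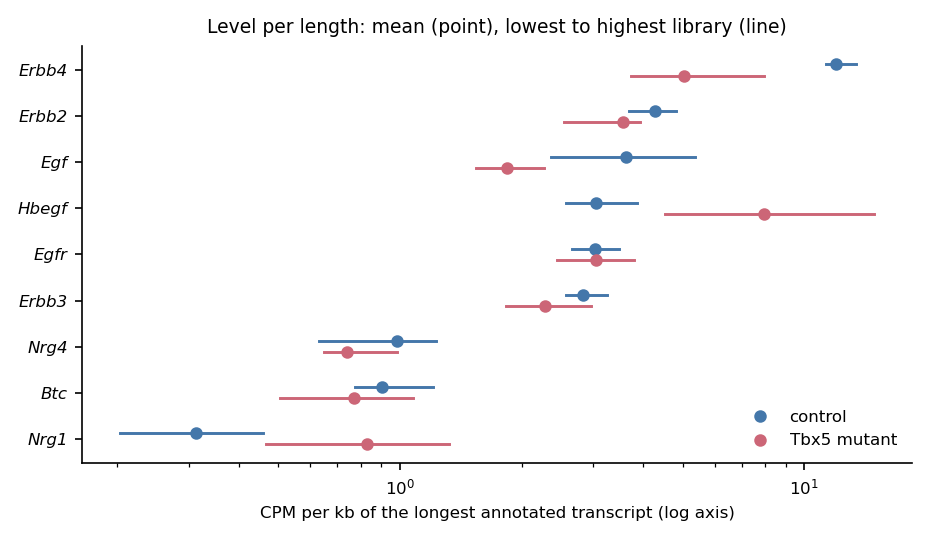
Mean level of the 9 genes in CPM per kb of transcript on a log axis, in mice labelled control (n = 4) and mice labelled Tbx5 mutant (n = 6), as points, with lines from the lowest to the highest library. Erbb4 is highest in controls at 12 CPM per kb, Hbegf is highest in mice labelled mutant at 7.94, and Nrg1 moves from the last place to the seventh.

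The other genes of the pathway were listed by role, 93 in all, of which 85 were tested. Of these, 8 were called lower and 9 higher, 20% against 15.7% of all genes tested, and their median log2 fold change was -0.01. Among the other ligands 3 of 6 were tested. Nrg2, a neuregulin that binds ERBB3 and ERBB4, fell from 10.8 ± 1.58 CPM (n = 4) to 3.74 ± 1.36 CPM (n = 6), a log2 fold change of -1.53 (SE 0.24, adjusted p = 0.000384). Ereg, which encodes epiregulin, a ligand of EGFR and ERBB4, rose from 0.754 ± 0.25 to 3.02 ± 1.45 CPM (log2 fold change 2, SE 0.41, adjusted p = 0.00273). Its counts were 3 to 7 reads in controls, against a floor of 3, and 9 to 39 reads in mice labelled mutant. Nrg3, Areg and Epgn had too few reads to be tested.

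Of 13 tested proteases and their cofactors, which release the ligands from the membrane, 1 was lower and 1 higher. The share called was 15.4%, beside 15.7% of all genes tested. Nrd1, whose product nardilysin enhances the shedding of HB-EGF, fell from 161 ± 9.53 to 105 ± 12.2 CPM, and Adam12, a metalloprotease that cleaves HB-EGF, rose from 1.14 to 3.22 CPM on 4 to 38 reads (adjusted p = 0.0109). Adam12 and Hbegf were both higher in all 6 mice labelled mutant than in the 4 controls, and the share of all tested genes without overlap was not counted. An adjusted p under 0.05, with or without the fold, was found for 5 of the 13, beside 4101 of the 13084 genes tested. Under the fold of 1.5, Rhbdf1 and Adam17 had log2 fold changes of 0.58 and 0.31 (adjusted p = 0.00167 and 0.0348). Adam19 went the other way, at -0.52 (adjusted p = 0.00279). Rhbdf1, Adam17 and Adam19 are named after their values were seen. Among 7 membrane partners and heparan sulfate proteoglycans, Gpc1, the proteoglycan glypican-1, fell from 893 ± 144 to 379 ± 37.4 CPM (log2 fold change -1.24, adjusted p = 7.68e-06). Cd44, a hyaluronan receptor that can present HB-EGF, rose from 46.4 ± 11 to 110 ± 12.2 CPM (log2 fold change 1.25, adjusted p = 3.4e-05).

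Of the 33 tested signal transducers below the receptors 3 were called lower and 0 higher, with a median log2 fold change of -0.07. That is 9.09% called, beside 15.7% of all genes tested. An adjusted p under 0.05, with or without the fold, was found for 11 of the 33, beside 4101 of the 13084 genes tested. Stat5b, a transcription factor that associates with ERBB4, fell from 182 ± 15.3 to 85.7 ± 9.63 CPM (log2 fold change -1.09, adjusted p = 4.08e-06), and its relative Stat5a fell from 43.9 to 24.1 CPM. Gab1, a docking protein of the pathway, fell from 98.4 to 59.3 CPM. No gene of RAS, RAF, MEK, ERK, PI3K or AKT on the list was called. Akt1, at 170 and 252 CPM, and Braf, at 88.4 and 59.2 CPM, had log2 fold changes of 0.57 and -0.57, just under the fold of 1.5, with adjusted p-values of 0.000159 and 0.00142. Akt2, at 71 and 54.1 CPM, and Pik3r2, at 30.9 and 23.1 CPM, had log2 fold changes of -0.39 and -0.41 (adjusted p = 0.00406 and 0.0228), so that Akt1 and Akt2 differed in sign. Nras and Map2k1 had log2 fold changes of 0.3 and 0.27 (adjusted p = 0.017 and 0.0204). Akt1, Braf, Akt2, Pik3r2, Nras and Map2k1 are named after their values were seen.

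Among 24 inhibitors 1 was lower and 3 were higher, 16.7% called beside 15.7% of all genes tested. Among 5 tested targets of ERK signalling 1 was lower and 3 were higher, a share that 1 gene more or less moves far. Dusp4 and Dusp6 encode phosphatases of MAP kinases. Dusp4 rose from 3.69 ± 0.556 to 14.1 ± 4.69 CPM (log2 fold change 1.94, SE 0.26, adjusted p = 0.000115) and Dusp6 from 24.8 ± 5.11 to 48.8 ± 5.99 CPM (log2 fold change 0.98, SE 0.14, adjusted p = 0.000159). Sh3kbp1, an adaptor in the internalization of receptors, fell from 87.8 to 50.8 CPM. The early response gene Ier3 rose from 18.2 to 42.3 CPM, the cyclin gene Ccnd1 from 41.2 to 72.2 CPM and the ETS factor gene Etv5 from 6.31 to 12.7 CPM. Etv1, another ETS factor gene, went the other way and fell from 28.6 ± 9.6 to 14.2 ± 3.27 CPM (adjusted p = 0.00264), while Spry1, an inhibitor of receptor tyrosine kinase signalling, rose from 17.2 to 31.2 CPM. These last genes, Etv1 and Spry1, were named after their values were seen. RNA levels do not measure phosphorylation, and no signalling activity was measured.

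**Figure D5:**
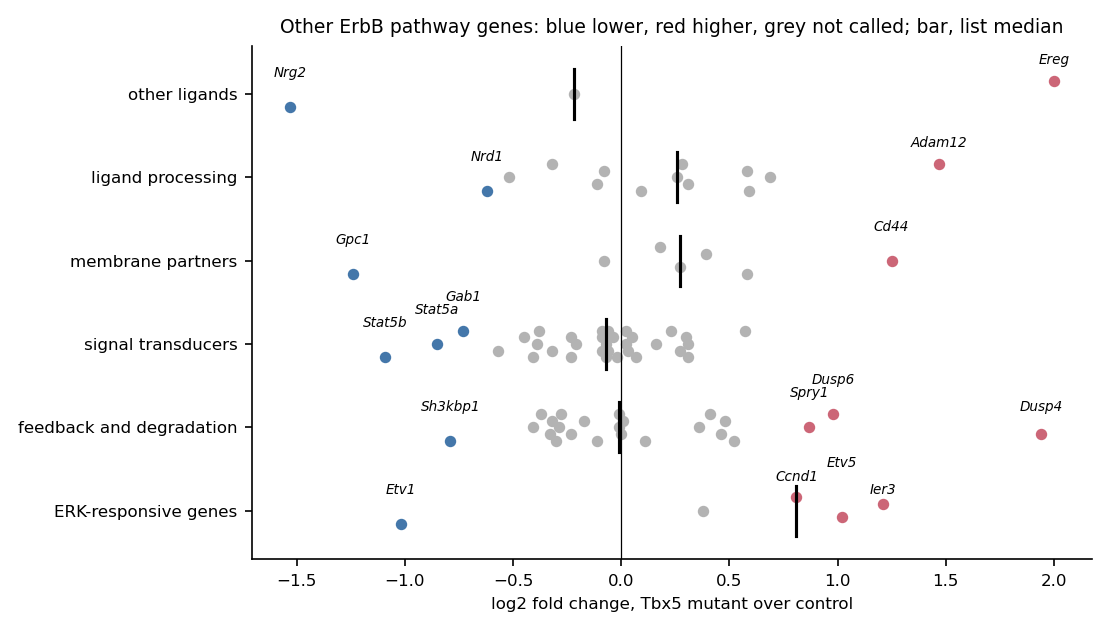
Log2 fold change, in mice labelled Tbx5 mutant against mice labelled control, of each tested gene in the pathway lists, 1 row of points per list; blue points are called lower, red called higher, grey not called, and the black bar is the median of the list. Of the 33 transducers 3 are called lower and 0 higher, and of the 5 tested ERK targets 1 lower and 3 higher, beside 7.16% lower and 8.5% higher over all genes tested; the lists were not tested against each other.

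Each library is RNA from a whole piece of tissue, in which fewer cells of a type and less RNA per cell cannot be told apart. The atrial markers Myl7, Myl4, Nppa and Sln were abundant in both groups, but 3 of the 4 were called lower, and their summed level was 39400 to 44200 CPM in controls and 16500 to 31500 CPM in mice labelled mutant. The summed cardiomyocyte markers, 99400 to 156000 and 68500 to 138000 CPM, overlapped, with 1 of 6 lower and 2 higher. The ventricular markers, of which Irx4 was at 0 or 1 read, summed to 135 to 251 CPM in controls and 104 to 928 CPM in mice labelled mutant, with M1 highest. Of the 2 tested, Myl2 rose from 4.53 ± 2.14 to 19.4 ± 8.92 CPM (adjusted p = 0.00156) and Myh7 was not called. M1 was also the library labelled mutant with the highest Erbb4. The part of these markers in the fall of Erbb4 was not tested.

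Endothelial markers, which mark a source of Nrg1, summed to 1060 to 1510 CPM in controls and 1230 to 1510 CPM in mice labelled mutant, and 0 of 6 were called. Of these, Emcn had a log2 fold change of 0.55 (adjusted p = 0.0132), under the fold of 1.5. It was higher in 5 of 6 libraries labelled mutant than in every control, and the rest ran from -0.24 to 0.23. The endocardial markers summed to 590 to 862 and 466 to 744 CPM, with 0 of 2 tested called and Hapln1 at or near 0. Nfatc1 had a log2 fold change of -0.43 (adjusted p = 0.0445), also under the fold, and Npr3 of -0.29 (adjusted p = 0.149). Leukocyte and smooth muscle lists were higher in mice labelled mutant, as Hbegf and Nrg1 were. All 3 tested leukocyte markers, Ptprc, Cd68 and Adgre1, were called higher, and the list summed to 54.6 to 76.1 CPM in controls and 106 to 136 CPM in mice labelled mutant. Smooth muscle markers summed to 98.9 to 150 and 159 to 583 CPM with 2 of 4 called higher. Both lists were highest in F1, which had the lowest Hbegf and Nrg1 of the 6 libraries labelled mutant, 13.1 and 2.52 CPM. The summed fibroblast markers overlapped, at 2650 to 3300 and 3240 to 4470 CPM, and were highest in M2, the library with the highest Hbegf and Nrg1. Of these 6 markers the collagen genes Col1a1 and Col1a2 were called higher, whereas Dcn had a log2 fold change of -0.01 and Pdgfra of -0.4 (adjusted p = 0.0152), lower in 5 of 6 libraries labelled mutant than in every control and under the fold of 1.5. The part of these cells in the rise of Hbegf and Nrg1 was not tested.

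S100b, a Schwann cell marker, which goes with the known site of Erbb3, was at 2.77 ± 0.413 CPM (n = 4) in controls and 3.28 ± 0.702 CPM (n = 6) in mice labelled mutant and was not called. In the neuron list Dbh alone was tested and was called lower, and the list summed to 32.9 to 42.9 and 9.9 to 13.2 CPM. Epicardial markers summed to 305 to 321 and 188 to 372 CPM, with 0 of 5 called. Adipocyte markers, beside which Nrg4 is of interest, were too low to be tested, at 0.47 to 4.14 and 0 to 20.8 CPM, with M2 labelled mutant highest, whereas Nrg4 was highest among mice labelled mutant in M1. Of the erythroid list, from which the protocol's globin removal takes reads, Hba-a1 and Hba-a2 were at 0 and Alas2 was called higher, with sums of 10.1 to 14.5 and 9.2 to 43.1 CPM.

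The genes that varied most like Nrg1 and Erbb4 between mice of the same group were sought over the 10 libraries among 10945 genes, with the group difference taken out. Gpd1, a glycerol phosphate dehydrogenase gene (Pearson's r = 0.94), Tmx1, a thioredoxin-related gene (0.94), and Serpinb8, a serine protease inhibitor gene (0.93), were most like Nrg1. For Erbb4 they were Zfp445, a zinc finger gene (0.99), Pde1c, a phosphodiesterase gene (0.98), and Sphkap, a protein kinase A anchor gene (0.97). Of these 6 genes Gpd1 and Tmx1 were called higher, Sphkap was called lower and the other 3 were not called. Spearman's rho was 0.93, 0.95 and 0.93 for the genes like Nrg1 and 0.92, 0.84 and 0.93 for those like Erbb4. Genes of 1 library share its depth and composition, so these correlations are a description only.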

How the data were processed

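The 10 right atrial libraries comprised 4 of the control label and 6 of the Tbx5 mutant label. The authors deposited raw read counts per gene and a signal, each count divided by a DESeq2 size factor per library. The submitters' processing notes name FastQC, TopHat2 2.0.11, featureCounts, DESeq2 and mm10; the annotation and the use of strand are not given in the sources used here. Columns with the authors' own comparison (mean, fold changes, errors, p-values) were not used.

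Counts were fitted with edgeR 4.0.16 in R 4.3.3 (expression filter, TMM, quasi-likelihood test, no covariates, prior count 0.125). Adjusted p-values are Benjamini-Hochberg values over the 13084 genes tested. A gene was called at adjusted p under 0.05, fold over 1.5 and mean deposited signal over 1 in controls. These thresholds are those of the left atrial study for coding genes. Dividing each log2 fold change by the root of its F gave the SE. Permutation tests were two-sided and exact. Labels number the samples within each sex, and p-values measure the spread between these samples. The smallest chi-square per degree of freedom between replicates was 3.78, so none was a duplicate.

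The members and lists were chosen with earlier results of these data known. All 9 members are named and, of each pathway list, the called genes with the 3 lowest adjusted p-values. Of 163 listed genes, 2 were matched by an older symbol and 2, Hbb-bs and Hbb-bt, were not matched. Lengths, from GENCODE M21, were found for 22871 of 23337 genes. For likeness, deviations of log2 CPM from group means were correlated among genes of at least 5 CPM. The fit was tested on simulated data. Floors cover counting error only. Some marker genes are not reported here.

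Alternatives were DESeq2 1.42.0, limma 3.58.1, other scalings, prior counts, filters and thresholds, labelled sex as a covariate, a replicate block, removal of a length trend and each library left out. The fit with labelled sex does not adjust for sex, because the control labels went against Xist and Ddx3y. Leaving out M2 and M3 together was added after the data were seen.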

Additional observations from a re-analysis of the deposited data

Results flagged for a closer look

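Within a group, 4 of 48 sets of values had a library at the end of the range that stood apart from its neighbours by Dixon's criterion, and chance alone gives about 2.4 of 48. Hbegf was 43.1 CPM (296 reads) in M2 labelled mutant, where the next library was at 21 CPM and the lowest at 13.1 CPM. Erbb4 was 96 CPM (560 reads) in M1 labelled mutant, where the next was at 58.2 CPM and the lowest at 44.9 CPM. Erbb2 was 12.8 CPM (81 reads) in F1 labelled mutant, below the next at 17.7 CPM and the highest at 19.7 CPM. Nrg4 was 2.06 CPM in M1 labelled mutant, on 12 reads, above the next at 1.53 CPM and the lowest at 1.36 CPM.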

How the results depend on the processing

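Hbegf, Egf and Erbb4 kept their direction and their call under 21 alternatives to the test and Nrg1 under 20, with log2 fold changes of 1.07 to 1.51 (highest adjusted p 0.0105), -1.12 to -0.72 (0.0184), -1.43 to -0.93 (0.000711) and 1.11 to 1.65 (0.025). Nrg1, Nrg4 and Btc could not be tested at a mean count of at least 50. Egfr changed sign with a replicate block (-0.02, adjusted p = 0.909), without M2 and M3 labelled mutant (-0.04, 0.858) and over single libraries left out (-0.05 to 0.1). Erbb3 ran from -0.4 to -0.24 as single libraries were left out. At a mean count of at least 50, 1284 of 9983 genes were called, 653 higher, among them 1 higher member. A fold over 2 left 906 calls, 367 lower and 539 higher, with 1 lower member, Erbb4, and 4 lower pathway genes. With no fold threshold there were 4096, 1967 lower and 2129 higher, with 16 lower and 18 higher pathway genes. As each library was left out, 1807 to 2205 genes were called and the members stayed at 2 lower and 2 higher. Same-numbered mice are different animals, whose deviations correlated between -0.047 and 0.0358. These values showed no likeness by number, but so few pairs cannot exclude a pairing. The replicate block gave 1957 calls and the same 2 lower and 2 higher members. Depth limited Nrg1, Nrg4 and Btc, which rested on 5 to 49 reads a library.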
